A study of Mus musculus with 6 samples.

Results

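The genes described here are 39 genes of mitosis, the G2/M part of the cell cycle, measured in short-term haematopoietic stem cells (ST-HSC) of the mouse. They were taken by symbol from a list of mitosis genes that was drawn up with earlier results of these data known. All 39 were among the 53677 genes of the deposited table, and all 39 passed the filter for testing (a mean of at least 1 RPKM), as 11326 genes did. RPKM divides the reads of a gene by its length and by the total counted in that library.

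Bone marrow of C57BL/6J mice was the source in every case, with 3 animals that were wild type (WT, genotype label dnTCF4-/-) and 3 that expressed dnTCF4, a dominant-negative form of the Wnt pathway factor TCF4 (genotype label dnTCF4+/+). No source used here gives the promoter that drives dnTCF4 or the age of the mice. Cells were sorted as Lin- ckit+ CD48+ CD150-, poly(A) RNA was amplified, and each mouse gave 1 library. Libraries are named by genotype and the replicate number of their title. The depth recovered from the values was 57400000 to 110900000 counted reads per library, with dnTCF4 replicate 2 the deepest. Kit, Cd48 and Slamf1 went with the labels of the gate. Mean Kit levels were 64.2 ± 18.3 RPKM (WT) and 69.1 ± 31.2 RPKM (dnTCF4; SD, n = 3 each). Mean Cd48 levels were 901 ± 90.6 and 1195 ± 209 RPKM. Slamf1, which encodes CD150, averaged 0.931 RPKM (WT) and 0.969 RPKM (dnTCF4). Ly6a, listed with the gate genes, peaked in replicate 1 of each genotype. It reached 236 RPKM there in WT (98.5 and 93.3 in the others) and 164 RPKM in dnTCF4 (76.8 and 121). The Lin- label was not borne out by transcripts of mature cells. Igkc ranged from 38609 to 74124 RPKM in WT and from 3645 to 8466 in dnTCF4. S100a8 ranged from 232 to 1026 RPKM in WT and from 1106 to 2948 in dnTCF4. Immunoglobulin transcripts accounted for 6.96% to 14.3% of the reads of WT libraries and for 0.705% to 1.49% of those of dnTCF4 libraries. Because RPKM is scaled to counted reads, this share lowers the RPKM of every other gene more in WT. Across all genes tested, log2 fold changes (dnTCF4 minus WT) had a median of 0.14 as deposited and -0.04 after median ratio scaling, a rescaling of each library by its median ratio to the others.

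Mitosis is driven by Cdk1 bound to B-type cyclins, started with the help of the Aurora and Polo kinases and held at metaphase by the spindle assembly checkpoint until every chromosome is attached. The anaphase-promoting complex with Cdc20 then marks cyclin B and securin for destruction, sister chromatids part and the cell divides. Transcripts of these genes accumulate late in the cycle and are nearly absent in resting cells, so in bone marrow they are widely read as a sign of how many progenitors are cycling. Most of them are controlled through a short promoter element, the cell cycle genes homology region (CHR), which binds the MuvB complex together with B-MYB and FOXM1 in cycling cells and with E2F4 and p130 in resting cells, and through CCAAT boxes, which bind NF-Y.

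Promoters are shown for 4 members with a CHR match and for 1 member with neither motif, because the promoter is where the members resemble each other without the choice having used it. Letters are from RefSeq on GRCm38.p6. Each run covers the 150 bases before the RefSeq start, 5′ to 3′ on the strand of the gene. Capitals mark CHR matches (TTTGAA or TTCAAA) and CCAAT matches (CCAAT or ATTGG), so both strands were searched.
Cdk1, chr10:69352913-69353062, minus strand: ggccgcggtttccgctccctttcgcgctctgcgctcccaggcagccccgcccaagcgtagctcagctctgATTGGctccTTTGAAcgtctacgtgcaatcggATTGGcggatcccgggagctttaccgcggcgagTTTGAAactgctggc
Plk1, chr7:122159285-122159434, plus strand: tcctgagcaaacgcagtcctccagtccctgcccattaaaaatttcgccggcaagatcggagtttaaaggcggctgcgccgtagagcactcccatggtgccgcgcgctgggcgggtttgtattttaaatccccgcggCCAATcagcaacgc
Plk1 site after the start, chr7:122159457-122159478, plus strand: gcgccgcgTTTGAAttcgggga
Cdc20, chr4:118437344-118437493, minus strand: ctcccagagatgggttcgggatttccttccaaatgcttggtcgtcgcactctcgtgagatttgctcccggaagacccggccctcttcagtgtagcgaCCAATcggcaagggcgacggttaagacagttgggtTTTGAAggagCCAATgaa
Aurka, chr2:172370571-172370720, minus strand: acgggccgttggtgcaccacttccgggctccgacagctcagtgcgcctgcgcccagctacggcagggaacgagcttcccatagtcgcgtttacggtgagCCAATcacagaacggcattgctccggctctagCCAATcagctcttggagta
Aurka site after the start, chr2:172370525-172370546, minus strand: ggagaaccTTTGAAttgtaacg
Nusap1, chr2:119618148-119618297, plus strand: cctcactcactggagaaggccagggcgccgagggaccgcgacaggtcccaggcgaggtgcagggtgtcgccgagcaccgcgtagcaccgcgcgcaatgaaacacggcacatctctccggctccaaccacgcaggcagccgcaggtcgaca

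With positions counted from 0 at the start base, the first letter of a CHR match lay at -71 and -15 in Cdk1, at -18 in Cdc20, at 30 in Plk1 and at 32 in Aurka. Each of these 4 genes also had a CCAAT match upstream of a CHR match, the nearest at -80 and -48 in Cdk1, -53 in Cdc20, -14 in Plk1 and -19 in Aurka. Of the 39 members, 33 had a RefSeq window of 300 bases (250 before the start and 50 from it on). Ccna2, Aurkb, Incenp, Tpx2, Kif20a and Smc4 had none. A CHR match was present in 26 of the 33 windows (78.8%), against 18.1% of all 27025 windows of the same length. A CCAAT match was present in 26 (78.8%), against 37.9%, and both were present in 23 (69.7%), against 7.12%. Within 50 bases of the start, a limit set after the positions were seen, 23 members (69.7%) had a CHR match, against 4.92% of all windows. Birc5, Mad2l1, Nuf2 and Nusap1 had neither motif, which was 12.1% of members against 51.1% of all windows. The letters of a CHR with a C before them also match the consensus of the TCF/LEF factors. That form was found in 3 members, Cdk1, Aurka and Smc2 (9.09%), against 5.27% of all windows. These are matches of letters only, and no binding was measured.

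**Figure D1:**
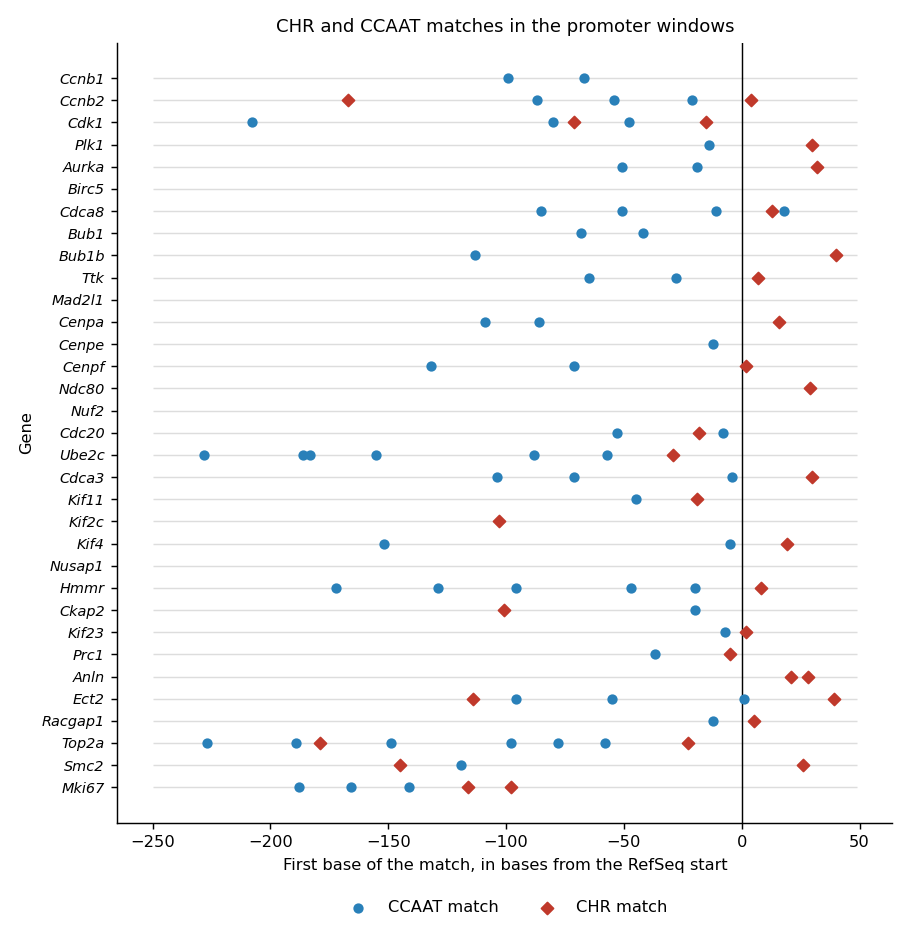
Positions of CHR and CCAAT matches in the RefSeq windows of the 33 members that have one, with distance from the start base in bases on the x axis and 1 member per line. CHR matches gather within 50 bases of the start in 23 members, and CCAAT matches lie mostly upstream of it.

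No member differed between genotypes in the limma test across all genes. Of 39 members, 0 had an adjusted p under 0.05 (limma, Benjamini-Hochberg), against 0.3% of all genes tested (34 of 11326). The smallest unadjusted p among members was 0.159 and the smallest adjusted p 0.66 (limma), both for Nusap1, and 0 members had an unadjusted p under 0.05. With the replicate number as a block, 0 members were called, against 0.433% of all genes, 3 had an unadjusted p under 0.05 (Cenpa, Kif11 and Racgap1) and the smallest adjusted p was 0.27 (limma). A limma-voom fit on reads recovered from the RPKM called 0 as well. The 3 values of one genotype overlapped the 3 of the other for each of the 39 members. Complete separation upwards in dnTCF4 was seen in 15.4% of all genes and downwards in 2.26%.

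Signs leaned to higher values in dnTCF4, as did those of the whole transcriptome. As deposited, 32 of 39 members (82.1%) had a higher mean log2 value in dnTCF4 and 7 a lower one, against 68.5% higher among all genes. After median ratio scaling 24 were higher. The median log2 fold change of members was 0.28, and 0.06 after median ratio scaling, against 0.14 and -0.04 for all genes. When immunoglobulin genes were removed and the summed RPKM of each library was restored, 2 were higher, and the median of all genes was -0.26. That factor follows the immunoglobulin share of summed RPKM (44.1% in WT replicate 1), not of reads (14.3%). Removal by the share of reads, chosen after seeing the data, gave 28 higher (median of all genes 0.04). Between libraries with the same number, 18 members were higher in dnTCF4 in every pair, against 37.3% of all genes, and 0 were lower in every pair, against 4.78%. The count of members higher in dnTCF4 was 36 in pair 1, 32 in pair 2 and 23 in pair 3. Among all genes the shares higher were 81.0%, 61.1% and 58.3%. After median ratio scaling the counts were 22, 25 and 20 of 39, against 49.3%, 43.5% and 49.5% of all genes. Without WT replicate 1, 19 members were higher in dnTCF4 and the median log2 fold change was -0.0015 (0.08 for all genes). Without dnTCF4 replicate 1, 33 were higher, the median was 0.46 (0.16 for all genes) and 5 members had an unadjusted p under 0.05 in limma, with a smallest adjusted p of 0.44. Without dnTCF4 replicate 2 the median was 0.16 (0.15 for all genes). Log2 fold changes ran from -0.32 (Kif2c) to 0.47 (Nusap1), and from -0.52 to 0.26 after median ratio scaling.

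The width of the intervals depended on whether the replicate number entered the fit. In the fit on genotype alone, the 95% interval of the log2 fold change had a median half-width of 0.74, and over all members the limits ran from -1.43 to 1.37. For 22 members the interval lay between log2 values of -1 and 1, for 15 it reached above 1 and for 2, Plk1 and Kif2c, below -1. With the replicate block the median half-width was 0.48, the limits ran from -1.25 to 0.95, and 37 of 39 intervals lay between -1 and 1. Of these blocked intervals, 3 excluded 0 before adjustment over genes (Cenpa, Kif11 and Racgap1). Each member was covered by 471 to 98495 reads per library, and the lowest count carries a counting error of 4.61%. Reads amplified without molecular identifiers are not independent molecules, so this figure covers counting error only.

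**Figure D2:**
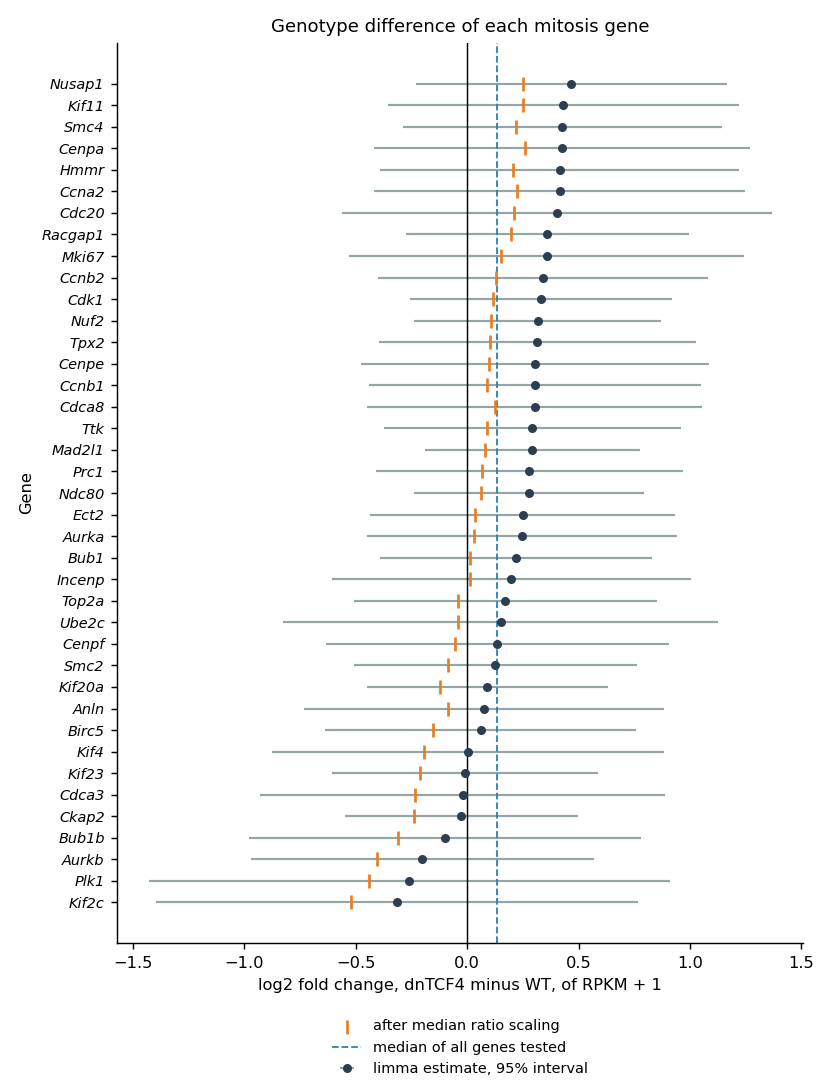
Log2 fold change of each of the 39 members (dnTCF4 minus WT, on log2(RPKM + 1)), with the 95% interval of the limma fit on genotype alone as a line, ordered by size. Orange marks give the estimate after median ratio scaling and the dashed line the median of all genes tested (0.14). Each of these 39 intervals includes 0, and the estimates run from -0.32 to 0.47 as deposited.

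The members differed more between replicate numbers than between genotypes. WT replicate 1 was the lowest WT library for 39 of 39 members, against 59.3% of all genes, and for 38 of 39 after median ratio scaling, against 36.6%. It lay below the mean of the other WT libraries by a median log2 value of -0.72, against -0.19 for all genes, and by -0.51 against -0.02 after median ratio scaling. In dnTCF4, replicate 1 lay below replicate 2 for 38 of 39 members, the exception being Ccna2, while 47.0% of all genes had the higher value in replicate 2. The median log2 difference of dnTCF4 replicate 2 from replicate 1 was 0.60 among members and -0.02 among all genes, the same to 2 decimals after median ratio scaling. Of all 6 libraries, WT replicate 1 was the lowest for 31 members, dnTCF4 replicate 3 for 5 and dnTCF4 replicate 1 for 3. The highest library was dnTCF4 replicate 2 for 17 members, dnTCF4 replicate 3 for 16, WT replicate 2 for 5 and WT replicate 3 for 1.

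Summed over the 39 members, expression was 861, 1341 and 1417 RPKM in WT replicates 1, 2 and 3 (1207 ± 301, SD, n = 3) and 1089, 1649 and 1502 RPKM in dnTCF4 replicates 1, 2 and 3 (1414 ± 290.4). Replicate 1 was the lowest in both genotypes, and the groups overlapped. In these bulk samples, fewer cells in mitosis and less RNA per cell cannot be told apart. On the log2 scale, the replicate number took a median of 72.6% of a member's sum of squares, genotype 12.8% and the rest 8.61%. Over all genes these medians were 45.5%, 19.0% and 22.5%. The number has 2 degrees of freedom and genotype 1, so the number takes more by construction. It exceeded genotype in 39 of 39 members and in 69.1% of all genes, and in 39 and 76.1% after median ratio scaling. Members moved together over the 6 libraries, with a median correlation of 0.75 over 741 pairs of members, of which 46 were negative, and 0.64 after median ratio scaling. All pairs share the same 6 libraries, their depth and their scaling.

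**Figure D3:**
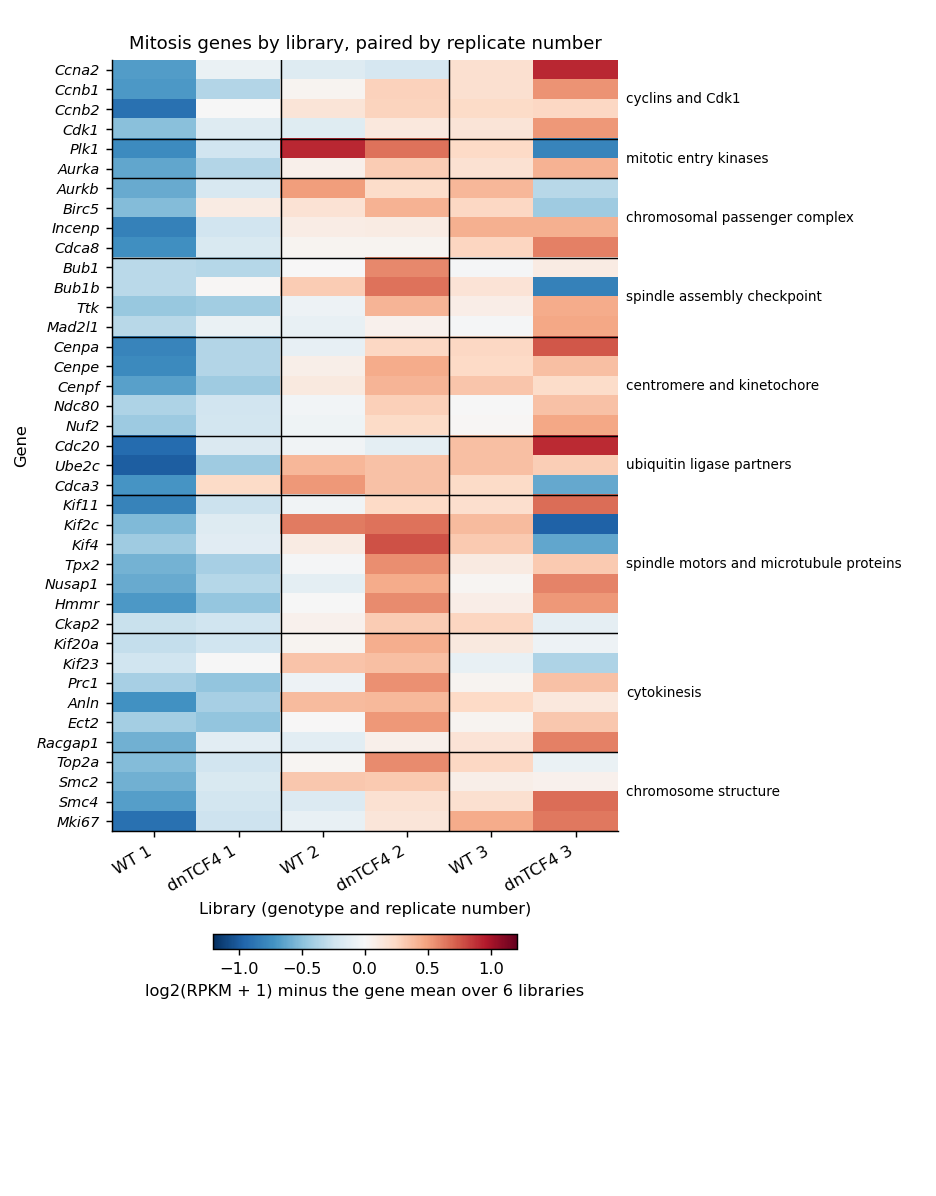
Log2(RPKM + 1) of each member minus its mean over the 6 libraries, by library, with libraries of the same replicate number side by side and members grouped by role. Both replicate 1 columns are blue (low) for most members, WT replicate 1 most of all, and dnTCF4 replicate 3 holds both the reddest and some of the bluest cells.

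Several other measures moved with the replicate number. Y-linked transcripts were read in replicate 1 of both genotypes (Ddx3y at 30.5 RPKM in WT and 24.8 in dnTCF4, Eif2s3y at 32.6 and 30.4) and were listed at 0 in replicates 2 and 3. Xist, the transcript of the inactive X chromosome, was at 0.0167 and 0.038 RPKM in replicate 1 of WT and dnTCF4 and at 22.8 to 71.9 RPKM in the other 4 libraries. These genes were looked at after the pattern had been seen. Markers of T cells summed to 5.69 RPKM in WT replicate 1 and 6.01 in dnTCF4 replicate 1, against 2.18 to 2.79 in the other 4 libraries. Of these 6 markers only 1, Trac, was tested, and the rest had a mean under 1 RPKM. B cell and plasma cell markers, at 11088, 5071 and 11645 RPKM in dnTCF4 replicates 1, 2 and 3, were not highest in replicate 1 of that genotype. Sums of mature neutrophil markers rose from replicate 1 to replicate 3 in both genotypes, from 624 to 3140 RPKM in WT and from 3092 to 7618 in dnTCF4. The part of sex-linked expression and of these markers in the pattern was not tested. Across the 39 members, the shift of WT replicate 1 was more negative for transcripts of higher GC content (Spearman -0.54, against -0.30 over 9246 genes). The difference of dnTCF4 replicate 2 minus replicate 1 had a coefficient of -0.25 (against -0.37). At higher GC, WT replicate 1 thus tended to lie further below the other WT libraries, but dnTCF4 replicate 1 less far below replicate 2. The relation to GC therefore did not follow the replicate number in the same direction in both genotypes. These are descriptions over genes that share the libraries, with GC contents of 39.7% to 56.0% among members. In the 4 libraries numbered 2 and 3 alone, a fit added after the pattern had been seen, 0 members were called (limma, smallest adjusted p 0.64), 27 were higher in dnTCF4, and the members' log2 fold changes had a median of 0.23 (0.11 for all genes).

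Per length, the members spanned a 39.99-fold range of mean level, from 3.30 RPKM (Racgap1) to 132.1 RPKM (Ccnb1), with a median of 22.8 against 5.83 for all genes tested, and 34 of 39 lay above that median. The ratio of the highest to the lowest library had a median of 2.33 and ran from 1.499 (Ckap2) to 4.17 (Cdc20). In what follows, 3 values of a genotype are those of replicates 1, 2 and 3 in that order. SE and adjusted p are those of the fit on genotype alone unless another fit is named. That fit leaves the replicate number out, and its median interval half-width was 0.74, against 0.48 with the replicate block. The log2 fold change of each of the 27 members given by library moved by over 1.5 times, or turned sign, when some single library was left out (Ccnb1 from 0.038 to 0.56, for example, and Ccna2 from 0.066 to 0.62).

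All 4 genes of the cyclins and Cdk1 had a higher mean in dnTCF4, before and after median ratio scaling (median log2 fold change 0.33 and 0.12), and none was called. Ccnb1, which encodes cyclin B1, the partner that activates Cdk1 at mitotic entry, was at 78.7, 129.9 and 146 RPKM in WT and 99.2, 154 and 185 RPKM in dnTCF4. Within each pair of numbers dnTCF4 had the higher value, by less than the distance between replicates 1 and 3 of either genotype (log2 fold change 0.30, SE 0.32, limma adjusted p = 0.73). Ccnb2, the gene of cyclin B2, was at 14.1, 30.3 and 31.9 RPKM in WT and 27.0, 32.9 and 32.3 in dnTCF4, so that WT replicate 1 stood alone at the bottom of 5 similar libraries. Ccna2, the gene of cyclin A2, which acts in S phase and G2, was at 4.27, 6.53 and 8.58 RPKM in WT and 6.91, 6.27 and 14.7 in dnTCF4, with dnTCF4 replicate 3 well above the rest. Cdk1 (GRCm38 chromosome 10, 69335146 to 69352938), the kinase itself, was at 52.6, 67.7 and 83.5 RPKM in WT and 67.5, 82.0 and 108 in dnTCF4. Replicate 1 was the lowest and replicate 3 the highest library in both genotypes (log2 fold change 0.33, SE 0.25, limma adjusted p = 0.70).

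The mitotic entry kinases parted from each other. Plk1 (GRCm38 chromosome 7, 122159439 to 122169873), the Polo-like kinase of centrosome maturation and mitotic exit, was at 4.09, 15.1 and 9.14 RPKM in WT and 6.27, 12.5 and 3.95 in dnTCF4. Replicate 2 was the highest library in both genotypes, and the lowest of all 6 was dnTCF4 replicate 3 (log2 fold change -0.26, SE 0.50, limma adjusted p = 0.83, and 0.07 without dnTCF4 replicate 3). Aurka (GRCm38 chromosome 2, 172356190 to 172370535), the Aurora kinase of the spindle poles, was at 50.1, 81.2 and 88.4 RPKM in WT and 60.7, 95.9 and 104 in dnTCF4, with replicate 1 lowest and replicate 3 highest in each genotype.

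The chromosomal passenger complex, which corrects faulty attachments of chromosomes to the spindle, is made of Aurora B (Aurkb), survivin (Birc5), Incenp and borealin (Cdca8). Of these 4 genes 3 had a higher mean in dnTCF4, and 2 after median ratio scaling, and none was called. Aurkb was at 9.71, 22.1 and 20.5 RPKM in WT and 13.2, 18.01 and 11.95 in dnTCF4, and Birc5 at 58.7, 95.7 and 101.03 RPKM in WT and 90.8, 113 and 62.8 in dnTCF4. In both genes dnTCF4 replicate 3 was the lowest dnTCF4 library. In Incenp and Cdca8 it was instead the highest, so that transcripts for subunits of 1 complex went opposite ways in that library, by log2 values of -0.34 (Aurkb), -0.68 (Birc5), 0.49 (Incenp) and 0.68 (Cdca8) from the mean of dnTCF4 replicates 1 and 2.

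Of the 4 genes of the spindle assembly checkpoint, 3 had a higher mean in dnTCF4, also after median ratio scaling, and none was called. Bub1, a checkpoint kinase of the kinetochore, was at 15.3, 19.4 and 19.0 RPKM in WT and 15.0, 29.2 and 20.7 in dnTCF4, with dnTCF4 replicate 2 apart from 5 libraries near each other. Bub1b encodes BubR1, which holds Cdc20 in check. It was at 43.1, 66.8 and 60.8 RPKM in WT and 54.5, 85.5 and 30.4 in dnTCF4, so that its highest and lowest libraries were both dnTCF4 (log2 fold change -0.10, SE 0.37, limma adjusted p = 0.91, and 0.28 without dnTCF4 replicate 3). Mad2l1, the gene of Mad2, which with BubR1 blocks Cdc20, was at 38.1, 45.2 and 47.7 RPKM in WT and 45.5, 50.01 and 67.0 in dnTCF4 (log2 fold change 0.29, SE 0.21, limma adjusted p = 0.68). It was among the members with the least spread between libraries, and its groups still overlapped. Ttk, which encodes the checkpoint kinase Mps1, had means of 15.3 ± 2.99 and 19.4 ± 6.12 RPKM (WT and dnTCF4, SD, n = 3 each).

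All 5 genes of the centromere and kinetochore, the protein layer that ties a chromosome to spindle microtubules, had a higher mean in dnTCF4, 4 of them after median ratio scaling, and none was called. Cenpa, the histone H3 variant that marks the centromere, was at 1.91, 3.71 and 4.97 RPKM in WT and 2.93, 4.98 and 7.43 in dnTCF4. Each pair of libraries differed the same way (log2 fold change 0.43, SE 0.36, limma adjusted p = 0.71, or 0.27 in the fit with the replicate block, the lowest adjusted p of any member there). Cenpf, a large protein of the outer kinetochore, was at 4.34, 8.12 and 9.58 RPKM in WT and 5.27, 10.1 and 8.80 in dnTCF4 (log2 fold change 0.14, and -0.05 after median ratio scaling). Ndc80 encodes the subunit that grips microtubules, and was at 53.5, 67.8 and 69.0 RPKM in WT and 59.1, 85.1 and 89.2 in dnTCF4. Its partner Nuf2 was at 19.9, 26.3 and 27.6 RPKM in WT and 23.4, 32.1 and 38.1 in dnTCF4. In both genes WT replicate 1 was lowest of 6 and dnTCF4 replicate 3 highest, and dnTCF4 replicate 1 was second lowest. Cenpe, a kinesin of the kinetochore, had means of 16.7 ± 5.85 and 20.5 ± 5.86 RPKM (SD, n = 3 each).

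Among the partners of ubiquitin ligases, 2 of 3 had a higher mean in dnTCF4 and 1 of 3 after median ratio scaling, and none was called. Cdc20 (GRCm38 chromosome 4, 118432901 to 118437352), the activator of the anaphase-promoting complex, was at 3.97, 8.17 and 11.1 RPKM in WT and 7.36, 7.66 and 16.5 in dnTCF4. It had the widest range over libraries of all 39 members, and dnTCF4 replicate 3 was its highest library (log2 fold change 0.40, SE 0.41, limma adjusted p = 0.73, and 0.041 to 0.68 with 1 library left out). Ube2c, the ubiquitin-conjugating enzyme that works with that complex, was at 4.66, 13.8 and 13.5 RPKM in WT and 7.39, 13.4 and 12.8 in dnTCF4, with replicate 1 low in both genotypes and the other 4 libraries close together (log2 fold change 0.15, and -0.04 after median ratio scaling). Cdca3, which recruits substrates for degradation at mitotic entry, had means of 45.4 ± 18.2 and 43.9 ± 14.5 RPKM (SD, n = 3 each).

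Of 7 genes of spindle motors and microtubule proteins, 5 had a higher mean in dnTCF4 and 4 after median ratio scaling, and none was called. Nusap1 (GRCm38 chromosome 2, 119618298 to 119651244), which bundles spindle microtubules around chromosomes, was at 55.8, 78.7 and 87.0 RPKM in WT and 67.4, 117 and 130 in dnTCF4. Its log2 fold change was the largest of the members as deposited (0.47, SE 0.30, limma adjusted p = 0.66, or 0.34 with the replicate block), but was below those of Cenpa and Kif11 with a pseudocount of 0.1 (0.47 against 0.53 and 0.51), in voom and, narrowly, after median ratio scaling. Its dnTCF4 replicate 1 was below WT replicates 2 and 3. Kif11, the Eg5 motor that pushes the spindle poles apart, was at 2.70, 5.25 and 6.39 RPKM in WT and 4.38, 6.61 and 9.24 in dnTCF4, again higher in every pair and overlapping between groups. Tpx2, the activator of Aurora A on the spindle, was at 27.3, 40.7 and 44.2 RPKM in WT and 30.9, 60.7 and 51.2 in dnTCF4. The remaining genes of this role had log2 fold changes of 0.42 (Hmmr, 0.21 after median ratio scaling), -0.03 (Ckap2, -0.24), 0.0041 (Kif4, -0.19) and -0.32 (Kif2c, -0.52). Kif2c, the kinesin that takes microtubule ends apart at the centromere, was the lowest of these, and without dnTCF4 replicate 3 its log2 fold change was 0.09.

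Of the 6 genes of cytokinesis, 5 had a higher mean in dnTCF4 and 3 after median ratio scaling, and none was called. Prc1, which bundles the microtubules of the central spindle, was at 21.5, 27.4 and 29.3 RPKM in WT and 20.3, 42.2 and 36.6 in dnTCF4. Both replicate 1 libraries were at the bottom, and dnTCF4 replicates 2 and 3 at the top. Anln, the gene of anillin, a scaffold of the contractile ring, was at 1.70, 4.83 and 4.28 RPKM in WT and 2.40, 4.89 and 3.88 in dnTCF4, with no order by genotype (log2 fold change 0.08, and -0.08 after median ratio scaling). Racgap1, which with the Kif23 motor forms centralspindlin, was at 1.80, 2.83 and 3.67 RPKM in WT and 2.82, 3.35 and 5.36 in dnTCF4. Kif23 itself had means of 12.2 ± 2.85 and 12.2 ± 3.34 RPKM (SD, n = 3 each), which leaves its log2 fold change at -0.01 (95% interval -0.60 to 0.59). The exchange factor Ect2, which turns on RhoA at the cleavage furrow, had means of 35.1 ± 5.75 and 43.3 ± 14.6 RPKM, and the kinesin Kif20a 46.2 ± 6.72 and 49.9 ± 12.8 RPKM.

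All 4 genes of chromosome structure had a higher mean in dnTCF4, 2 of them after median ratio scaling, and none was called. Mki67 (GRCm38 chromosome 7, 135689784 to 135716361), the gene of the Ki-67 protein that coats mitotic chromosomes, was at 9.91, 18.03 and 26.7 RPKM in WT and 16.1, 21.5 and 30.4 in dnTCF4. Values of the genotypes alternated along the scale (log2 fold change 0.36, SE 0.38, limma adjusted p = 0.74). Top2a (GRCm38 chromosome 11, 98992943 to 99024189), the topoisomerase that untangles sister chromatids, was at 45.7, 67.1 and 78.6 RPKM in WT and 56.3, 98.5 and 62.6 in dnTCF4, with dnTCF4 replicate 2 at the top and dnTCF4 replicate 3 below WT replicates 2 and 3 (log2 fold change 0.17, and -0.04 after median ratio scaling). Smc2 and Smc4 encode the paired ATPases of condensin. Smc2 was at 27.3, 51.8 and 43.3 RPKM in WT and 36.3, 51.5 and 42.9 in dnTCF4, with nearly equal values in the 2 libraries numbered 2 and in the 2 numbered 3. Smc4 was at 13.3, 19.1 and 24.8 RPKM in WT and 18.4, 24.7 and 35.0 in dnTCF4, higher in every pair (log2 fold change 0.43, SE 0.30, limma adjusted p = 0.69).

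**Figure D4:**
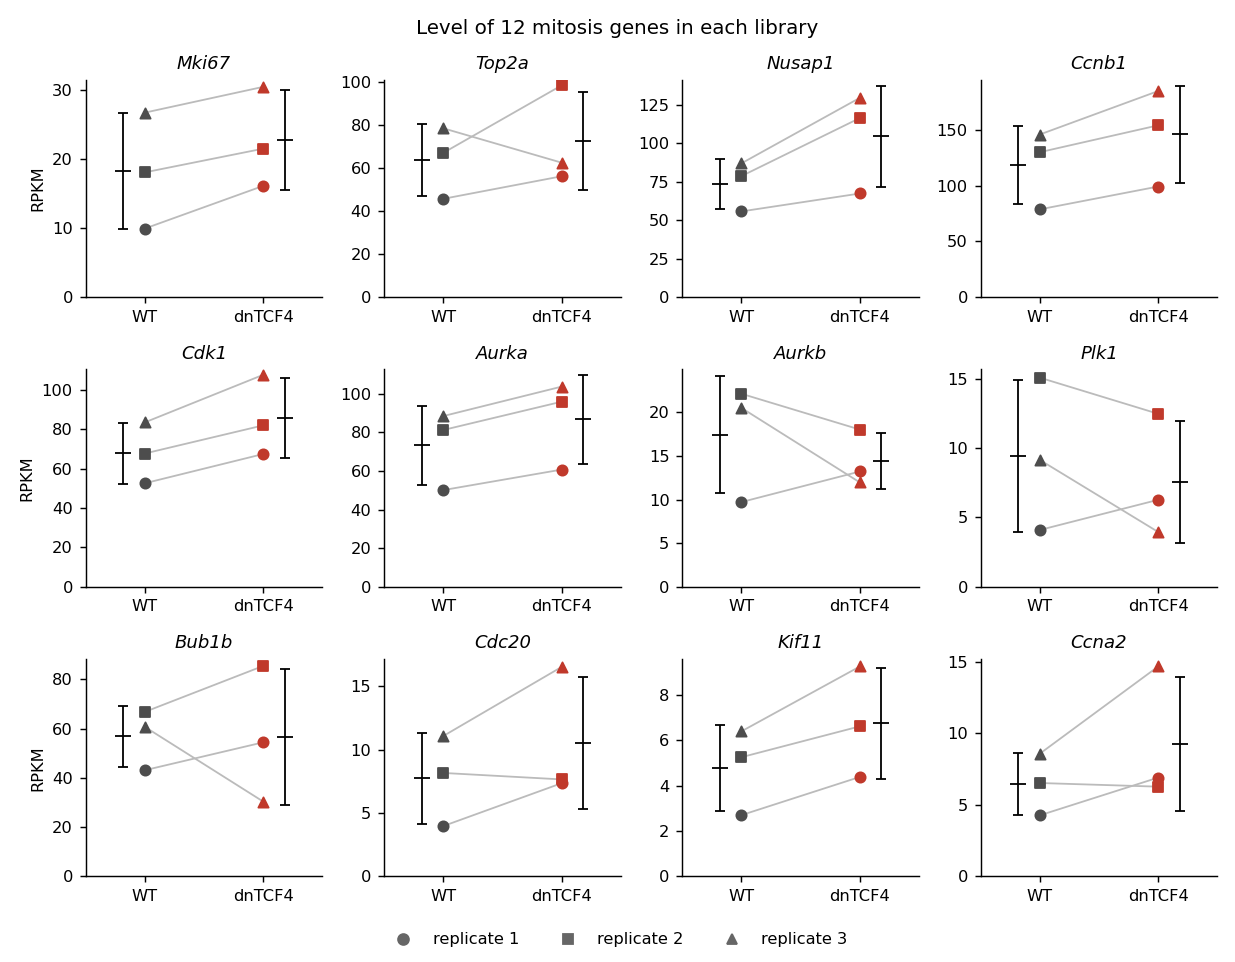
RPKM of 12 members in each library, 1 panel per gene with its own linear axis, WT on the left and dnTCF4 on the right of each panel. Points are libraries, grey lines join libraries of the same replicate number, and black bars give mean ± SD (n = 3). Groups overlap in each of the 12 panels, and WT replicate 1 is the lowest WT point in each.

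Replicate 3 of dnTCF4 did not shift the members in one direction. It was the highest dnTCF4 library for 17 members, the lowest for 8 and between the others for 14, against 48.5% and 33.8% of all genes with their highest and lowest dnTCF4 value there. After median ratio scaling it was highest for 14 and lowest for 8. The 8 members lowest in it were Plk1, Aurkb, Birc5, Bub1b, Cdca3, Kif2c, Kif4 and Kif23. The 17 highest in it included Ccna2, Ccnb1, Cdk1, Aurka, Cdc20, Cenpa, Ndc80, Nuf2, Kif11, Nusap1 and Mki67. From the mean of dnTCF4 replicates 1 and 2, members ranged from a log2 value of -1.22 (Kif2c) to 1.05 (Ccna2), with Cdc20 at 1.04 and Bub1b at -1.14. Across the 39 members, this difference ran with that of WT replicate 3 from WT replicate 2, which shares no library with it (Spearman 0.73). The same coefficient over all genes tested was 0.64. Without dnTCF4 replicate 3, 38 of 39 members had a higher mean in dnTCF4, the exception being Aurkb at a log2 fold change of -0.09, and their median was 0.15 against 0.11 for all genes.

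**Figure D5:**
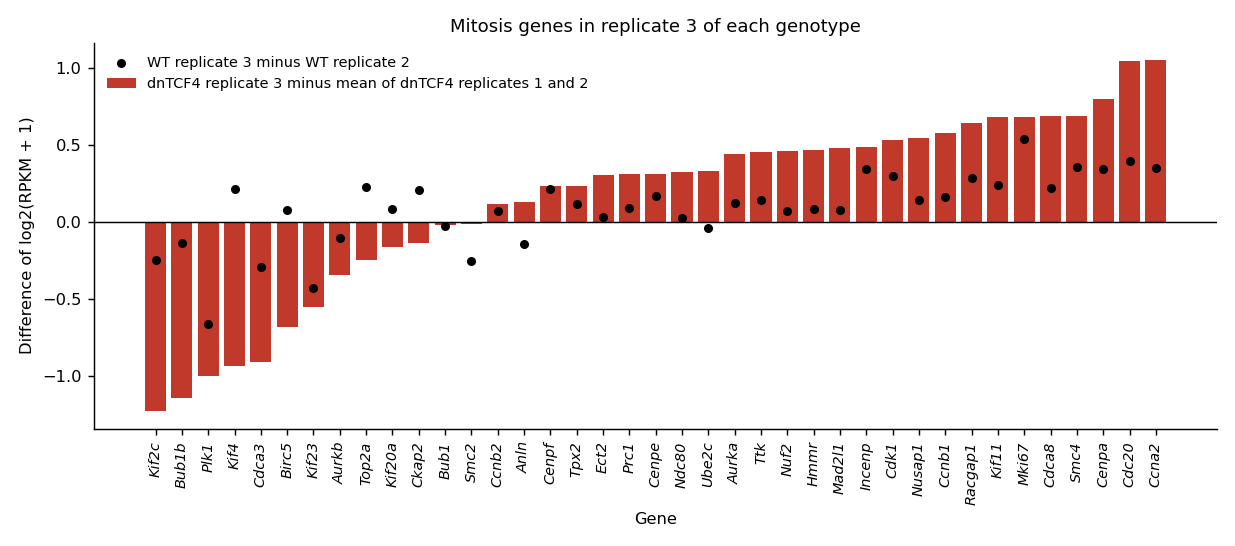
Difference of log2(RPKM + 1) for each of the 39 members between dnTCF4 replicate 3 and the mean of dnTCF4 replicates 1 and 2 (bars), and between WT replicate 3 and WT replicate 2 (points). Members are ordered by the bars, which run from -1.22 (Kif2c) to 1.05 (Ccna2), and the points lean the same way over a smaller range.

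Genes of DNA replication, which mark S phase, were compared as the neighbouring part of the cell cycle. All 35 listed were tested and 0 were called (limma, smallest adjusted p 0.49, 1 with an unadjusted p under 0.05). Of them 20 had a higher mean in dnTCF4, and 5 after median ratio scaling, with median log2 fold changes of 0.03 and -0.17. Their median shift in WT replicate 1 was -0.32, against -0.72 for the mitosis genes, and their median difference of dnTCF4 replicate 2 from replicate 1 was -0.08, against 0.60. The median log2 level of the mitosis genes minus that of the replication genes was -0.82, -0.59 and -0.19 in WT and -0.72, 0.11 and 0.14 in dnTCF4 replicates 1, 2 and 3. This difference within a library does not depend on a common scaling factor except near the pseudocount. It was lowest in replicate 1 of both genotypes, and the genotypes overlapped. By smallest p, the replication genes were led by Pole, the catalytic subunit of DNA polymerase epsilon (mean level 7.81 ± 0.894 RPKM for WT, 11.2 ± 1.55 RPKM for dnTCF4, difference 0.47 on the log2 scale, limma adjusted p = 0.49), followed by Fen1, a nuclease of Okazaki fragments (-0.81, adjusted p = 0.68), and Mcm3 of the replicative helicase (-0.67, adjusted p = 0.68).

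The wider mitotic machinery was covered by 7 lists with 128 symbols, of which 125 were in the table and 123 were tested. Of the 123, 0 were called by limma and 0 with the replicate block, and 0 and 5 had an unadjusted p under 0.05. A higher mean in dnTCF4 was found for 95 and, after median ratio scaling, for 54, with median log2 fold changes of 0.15 and -0.03, close to those of all genes (0.14 and -0.04). The regulators of G2/M transcription, MuvB with its partners B-MYB and FOXM1, had 9 of 10 higher and 5 after median ratio scaling, and were led by Rbl2 (p130, log2 fold change 0.33), Lin9 (0.26) and Lin37 (-0.62). Controllers of mitotic entry and exit had 17 of 19 higher and 8 after scaling, led by the kinase Melk (mean level 25.2 ± 3.46 RPKM for WT, 34.6 ± 5.97 RPKM for dnTCF4, limma adjusted p = 0.57), the Cdk1 partner Cks2 and the inhibitor of the anaphase-promoting complex Fbxo5. Subunits of the anaphase-promoting complex had 12 of 14 higher and 5 after scaling (Anapc13, Anapc10 and Anapc15 first).

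Cohesin, securin and separase had 14 of 15 higher and 10 after scaling. Pttg1, the gene of securin, which restrains separase until anaphase, had the smallest adjusted p of the 123 genes (limma, 0.53), at 27.7, 34.4 and 36.4 RPKM in WT and 40.04, 42.3 and 53.1 in dnTCF4. Each dnTCF4 library lay above each WT library for this gene, which was also the case in 15.4% of all genes. Its log2 fold change was 0.45 as deposited and 0.23 after median ratio scaling. Stag2 and Rad21 of the cohesin ring followed, with log2 fold changes of 0.50 and 0.45. Condensin subunits outside the members had 4 of 6 higher and 2 after scaling (Ncapg2, Ncaph and Ncapg first). Kinetochore and checkpoint genes had 21 of 34 higher and 13 after scaling (Cenpq, Ska2 and Cenpl first), and spindle and centrosome genes 18 of 25 and 11 (Depdc1a, Ckap5 and Dlgap5 first).

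Members with and without a CHR match in the promoter window were set side by side. The 26 with a CHR match had a median log2 fold change of 0.25 and the 7 with a window and no match 0.30. Their medians were -0.76 and -0.56 for the shift of WT replicate 1, 0.62 and 0.63 for dnTCF4 replicate 2 against replicate 1, and 0.31 and 0.46 for dnTCF4 replicate 3 against the others. With 7 genes on one side these medians carry no test.

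Markers of other cells in the marrow also differed between libraries. Mature neutrophil markers, 11 of 13 tested, summed to 624, 760 and 3140 RPKM in WT replicates 1, 2 and 3. In dnTCF4 the sums were 3092, 3748 and 7618 RPKM, so they rose with the replicate number in both genotypes. Of the 11 tested, 10 were higher in dnTCF4, also after median ratio scaling. Erythroblast markers, 8 of 14 tested, summed to 660.2 to 713 RPKM in WT and 1014 to 1254 in dnTCF4. Most of that sum was Car2 alone, at 616 to 669 RPKM in WT and 923 to 1140 in dnTCF4. Of the 8 tested, 7 were higher in dnTCF4, also after median ratio scaling, and Hemgn was lower (means of 19.5 and 8.62 RPKM). Hba-a1, Hba-a2, Alas2 and Slc4a1 had means under 1 RPKM in both genotypes. Megakaryocyte markers summed to 94.7 to 120.2 RPKM in WT and 184 to 201 in dnTCF4. B cell and plasma cell markers, 10 of 14 tested, summed to 50690 to 95668 RPKM in WT and 5071 to 11645 in dnTCF4. Igkc and Ighm of that list were the only markers called in the limma fit on genotype alone, both lower in dnTCF4 (adjusted p = 0.042 for each). With the replicate block limma called 3 of this list, among them Mzb1 (log2 fold change -2.45, adjusted p = 0.031). Pax5, which defines B cells, was listed at 0 in WT replicates 2 and 3. The part of these cells in the levels of the mitosis genes was not tested.

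Overlap between genes limits some values. The chemistry does not mark strand, and 9 members are overlapped by a gene of the other strand with a mean of at least 1 RPKM. For Cdc20 that gene is Elovl1, at 122 RPKM against 9.13 for Cdc20, for Kif4 it is Pdzd11, at 72.1 against 12.5, and for Ccna2 it is Exosc9, at 26.7 against 7.87, so values of these 3 members are the least certain. The others are Cdca8, Nusap1, Kif20a, Prc1, Top2a and Mki67, each at a higher level than its neighbour. Pseudogene copies were read at 1.58 RPKM for Ccnb1 and 0.816 for Ccnb2, against 132.1 and 28.1 for the genes.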

How the data were processed

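RNA of sorted ST-HSC from 3 WT and 3 dnTCF4 mice was sequenced (SMART-Seq v4 and Nextera XT, per the labels' protocols). The authors deposited 1 table of RPKM values, reads per kilobase scaled to the counted reads. STAR, featureCounts, DESeq2, edgeR, mm10 and GRCm38 are named in the submitters' processing notes, with roles, annotation and handling of multi-mapping reads not given in the sources used here. Coordinates and exon lengths were taken from GENCODE M21 on GRCm38, and promoters from RefSeq.

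Counted reads were recovered from RPKM and exon length: 96.5% to 96.7% of the low genes checked were whole within 0.02 of a read. Testing used limma 3.58.1 (R 4.3.3, trend, two-sided) on log2(RPKM + 1), for genes whose mean reached 1 RPKM, with genotype as the only term. Adjustment was by Benjamini-Hochberg over all 11326 genes, and under 0.05 was called. Fold changes on this scale understate those of low genes. Pandas 2.3.3 and numpy 2.4.6 in Python 3.11.15 made the tables. The fit was also run on simulated data with independent noise in each library. That simulation held no shared effect of the replicate number, so it cannot check the fit where such an effect exists.

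After removal of the group means, libraries with the same number correlated across genes at 0.17, 0.35 and 0.30, above the bound of 0.1. The numbers were therefore taken to pair the libraries in the replicate block and the pair counts, but not in the main fit. Members and lists were chosen with earlier results of these data known. The rule for named genes gives per-library values for 23 set members and the 6 with the smallest p (27 in all), and up to 3 genes with the smallest p from each other list. Mzb1 and the sex-linked genes lie outside it. Alternatives covered pseudocount, filter, scaling, block, weights, voom and each library left out, and 2 were added after the data were seen.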

Additional observations from a re-analysis of the deposited data

How the results depend on the processing

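No setting called a member: the count was 0 in the deposited scaling and in each of the 17 alternatives. Leaving out immunoglobulin genes and restoring each library's summed RPKM, which multiplies WT libraries most, gave 2 members higher in dnTCF4, with a median of -0.21 on the log2 scale against -0.26 for all genes. Leaving them out by their share of reads, an alternative chosen after seeing the data, gave 28 and 0.15. Library weights gave 20 members higher. Leaving out 1 library at a time gave 19 (without WT replicate 1) to 38 (without dnTCF4 replicate 3). The replicate block left the median at 0.28 and changed no call.

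Signs of single members were less settled. Leaving out immunoglobulin RPKM moved the members along with all genes tested, whose median became -0.26. With immunoglobulin RPKM left out, 22 of 27 named members turned negative: Mki67 -0.11, Top2a -0.31, Nusap1 -0.021, Ccna2 -0.013, Ccnb1 -0.18, Ccnb2 -0.13, Cdk1 -0.16, Aurka -0.24, Birc5 -0.43, Bub1 -0.25, Cdc20 -0.030, Ube2c -0.29, Cenpf -0.30, Ndc80 -0.21, Tpx2 -0.17, Prc1 -0.20, Anln -0.30, Smc2 -0.36, Mad2l1 -0.19, Smc4 -0.043, Nuf2 -0.16 and Racgap1 -0.0060. Median ratio scaling turned Top2a (-0.043), Birc5 (-0.15), Ube2c (-0.042), Cenpf (-0.052), Anln (-0.084) and Smc2 (-0.087), and quantile normalisation Anln (-0.037). Library weights turned Ccnb1 (-0.033), Aurka (-0.056), Cdc20 (-0.0058), Ube2c (-0.27), Cenpf (-0.15), Anln (-0.25) and Smc2 (-0.097). Immunoglobulin reads left out turned Birc5 (-0.064) and Anln (-0.016). The 4 libraries numbered 2 and 3 alone, also added after seeing the data, turned Birc5 (-0.22), Ube2c (-0.056), Anln (-0.050) and Smc2 (-0.011). With each library left out in turn, signs changed for Mki67 (-0.0015 to 0.67), Top2a (-0.069 to 0.34), Ccnb2 (-0.021 to 0.54), Aurka (-0.0033 to 0.48), Birc5 (-0.18 to 0.29), Ube2c (-0.31 to 0.40), Cenpf (-0.16 to 0.38), Anln (-0.27 to 0.30), Smc2 (-0.13 to 0.32), Bub1 (-0.013 to 0.45), Plk1 (-0.70 to 0.13), Aurkb (-0.55 to 0.0011) and Bub1b (-0.45 to 0.28). The other 14 kept their sign over these ranges: Nusap1 0.28 to 0.75, Ccna2 0.066 to 0.62, Ccnb1 0.038 to 0.56, Cdk1 0.15 to 0.49, Cdc20 0.041 to 0.68, Cenpa 0.14 to 0.71, Ndc80 0.16 to 0.46, Kif11 0.14 to 0.67, Tpx2 0.11 to 0.59, Prc1 0.076 to 0.59, Mad2l1 0.13 to 0.41, Smc4 0.20 to 0.64, Nuf2 0.16 to 0.50 and Racgap1 0.15 to 0.53. The cause of these moves was not tested. With 3 mice per genotype, the intervals rest on the spread between libraries.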
